A study of Mus musculus with 12 samples.

Results

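Interferon-responsive genes were examined in the cerebral cortex of mice that carry a deletion modeling Williams–Beuren syndrome and of their wild-type counterparts. The 9 genes are Isg15, Usp18, Ifit1, Ifit3, Oasl2, Bst2, Ifi203, Irf7 and Irf9. They were found by gene symbol, and all 9 were among the 17202 genes of the table of normalized counts. Messenger RNA was sequenced from 12 male mice, labelled C57Bl6 and by the methods kept on a background mostly of C57BL/6J, that came from a cross with a Thy1-YFP reporter line, which labels pyramidal neurons. Each of the 4 groups held 3 mice. Complete deletion (CD) mice are heterozygous for a deletion on chromosome 5 from Gtf2i to Fkbp6 in every tissue, and wild-type (WT) mice are not. Co-treated mice (VERCUR) drank verapamil, a calcium channel blocker, and curcumin, a phenol of turmeric. By the labels, curcumin was given at 60 and verapamil at 10 mg/kg/day from the age of 8 weeks over 1 month, with dissection at 16 weeks, while the methods of the study give a lower dose of verapamil and a younger age at the end. The controls (VEH) drank vehicle according to the methods and are called untreated in the labels. Groups are named by treatment and genotype, as in VEH-CD, and the sources mention no interferon and no infection in any of them.

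Interferons are secreted proteins that cells release when they detect foreign or misplaced nucleic acid. Type I interferon binds its receptor, and the signal leads to the assembly of a transcription factor complex, ISGF3, that contains Irf9. This complex binds the interferon-stimulated response element (ISRE) and turns on genes that limit viral replication. In the brain, microglia, endothelial cells, astrocytes and neurons can all respond, and a low tonic level of these transcripts is present without infection.

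The ISRE is the sequence through which several of these genes are known to be induced, so the promoters that hold it are shown. RefSeq promoter windows of GRCm38.p6, from 250 bases before to 50 bases after the start of transcription, were found for 8 of the 9 genes and not for Usp18. The ISRE core was searched as GAAANNGAAA, which reads TTTCNNTTTC on the other strand. It was present in windows of 5 of the 8 genes, against 3.99% of the 27025 genes with a window and 3.44% of all 32851 windows. Capitals mark the matches, written 5′ to 3′ on the strand of the gene, and neighboring matches overlap in Isg15 and Bst2.
Isg15, chr4:156200855-156200916, minus strand: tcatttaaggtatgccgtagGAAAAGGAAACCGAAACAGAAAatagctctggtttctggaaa
Ifit1, chr19:34640765-34640833, plus strand: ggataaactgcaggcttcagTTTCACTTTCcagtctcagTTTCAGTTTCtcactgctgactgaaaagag
Ifit3, chr19:34583353-34583436, plus strand: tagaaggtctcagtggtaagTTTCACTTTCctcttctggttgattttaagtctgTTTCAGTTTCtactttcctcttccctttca
Bst2, chr8:71537567-71537622, minus strand: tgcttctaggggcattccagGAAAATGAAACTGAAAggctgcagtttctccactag
Ifi203, chr1:173942498-173942547, minus strand: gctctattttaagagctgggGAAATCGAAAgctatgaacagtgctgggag
The first match of Isg15 began 78 bases before the start of transcription, that of Ifit1 104 bases, that of Ifit3 156 bases and that of Bst2 130 bases before it. Ifi203 had its match 35 bases before the second of its start sites. The windows of Oasl2, Irf7 and Irf9 held none, which says only that these letters were not in the windows. The gamma-activated site, TTCNNNGAA on both strands, was present in the window of Bst2, where it overlapped the ISRE core, and in 8.3% of all windows.

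Depth varied between mice, and its median was higher in both VERCUR groups. Between 40290000 and 56480000 reads were counted per mouse, rounded to 4 significant digits and as recovered from the steps of the normalized counts, with group medians of 43373871 in VEH-WT, 42252408 in VEH-CD, 52898206 in VERCUR-WT and 54357379 in VERCUR-CD and ranges that overlap between groups, and replicates within a group correlated at r = 0.986 to 0.994 across genes. The genotype labels held for every mouse: the median of 19 deleted genes, relative to VEH-WT, was 0.959 to 1.04 in the 6 WT mice and 0.468 to 0.53 in the 6 CD mice. The tissue was cortex by its neuronal markers, whose sum differed at most 1.13-fold between mice, but the sum of 5 striatal markers differed 4.72-fold and that of 5 oligodendrocyte markers 2.93-fold. Nothing in the labels says how the mice relate as litters or batches, so the p values below measure the spread between these mice.

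Levels were low to moderate. Per kilobase of exon, and averaged over the 12 mice, Ifit3 was the highest at 253.2 normalized counts, above 59.8% of the genes in the table. Bst2 followed at 114.9, Isg15 at 75.1, Irf9 at 54.0, Ifit1 at 46.0, Irf7 at 24.0, Oasl2 at 19.1 and Usp18 at 11.1. Ifi203 was the lowest at 2.53, above only 0.685% of genes. Between neighbors in this order the values of single mice overlapped, except that Ifit3 lay above Bst2 and Usp18 above Ifi203 in every mouse. The genes lie on 8 chromosomes. Ifit1 (chr19:34640871-34650009) and Ifit3 (chr19:34583531-34588731) are neighbors, and Oasl2 (chr5:114896936-114912234) shares chromosome 5 with the deletion but lies outside it. Of the 100-base stretches of the Ifit3 transcripts, 31.7% are also found in Ifit3b, so reads of this pair may have been split between them, whereas the figure was 3.29% for Ifit1 and 0 for Isg15, Oasl2, Bst2 and Irf7.

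**Figure D1:**
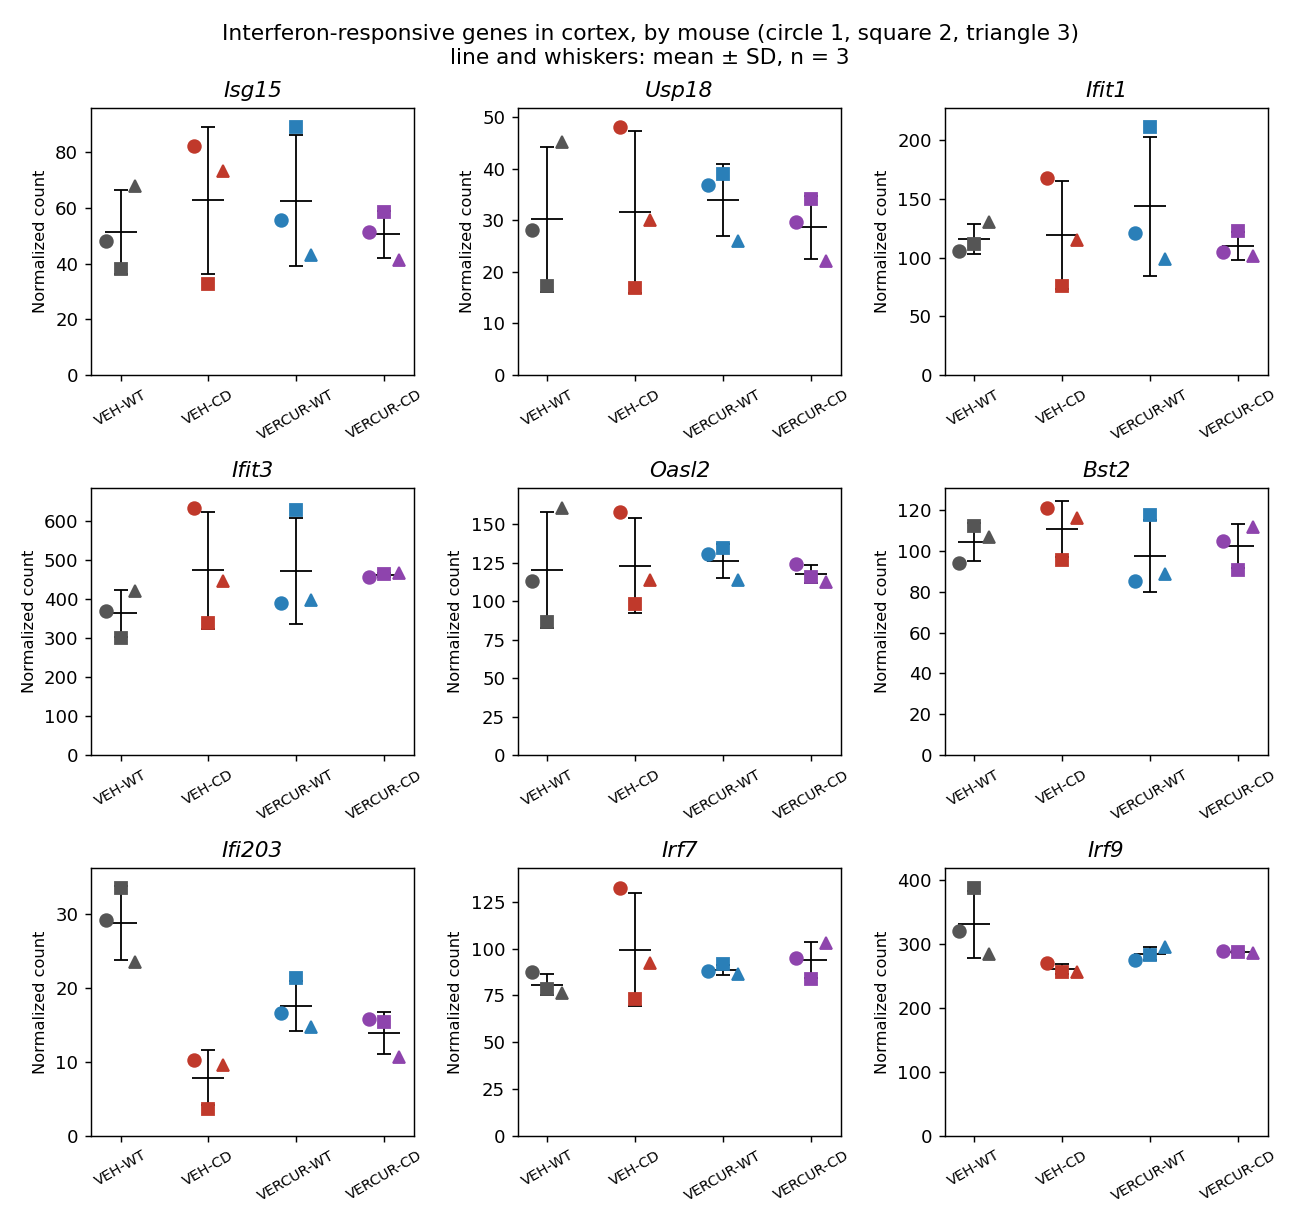
Normalized count (y axis, from 0) of each of the 9 genes in each mouse of the 4 groups (x axis); circles, squares and triangles are mice 1, 2 and 3, the horizontal line is the group mean and the whiskers are 1 SD (n = 3). Ifi203 is at 23.5 to 33.5 in VEH-WT and at 3.53 to 10.3 in VEH-CD, while for the first 6 genes the VEH-CD mice spread from below or near the VEH-WT mean to above it.

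None of the 9 genes passed the test in any of the 8 comparisons made. The test was limma on log2(normalized count + 1) with Benjamini-Hochberg adjustment over 17111 genes, and a gene was called when its adjusted p was under 0.05 and it differed by more than 25% in either direction (for the interaction, by the adjusted p alone). In VEH-CD against VEH-WT, 0 of 9 were called where 0.257% of all genes were, and limma's voom on the recovered reads also called 0. At an unadjusted p under 0.05 there were 2 of 9, both lower in VEH-CD (Ifi203 and Irf9), beside 6.73% of all genes lower and 11.8% in either direction. The median log2 fold change of the 9 genes was 0.05, with 6 positive and 3 negative, and that of all genes was -0.00.

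Isg15 and Usp18 form the ISG15 system. Isg15 encodes a ubiquitin-like protein that is attached to other proteins after interferon, and Usp18 encodes the protease that removes it and that also restrains the interferon receptor. Isg15 was at 48.2, 38.1 and 67.8 normalized counts in VEH-WT mice 1, 2 and 3 and at 82.3, 32.7 and 73.1 in VEH-CD mice. It was at 55.8, 88.9 and 43.1 in VERCUR-WT and at 51.5, 58.5 and 41.4 in VERCUR-CD. All 4 groups overlapped, and VEH-CD held both the lowest mouse of the 12 and the second highest. The log2 fold change of VEH-CD over VEH-WT was 0.22 (SE 0.35, limma adjusted p = 0.833), with a 95% interval of -0.55 to 0.98. It was -0.03 without VEH-CD mouse 1, 0.62 without VEH-CD mouse 2, 0.06 without VEH-CD mouse 3, 0.03 without VEH-WT mouse 2 and 0.43 without VEH-WT mouse 3. Between VERCUR-CD and VEH-CD the log2 difference of Isg15 was -0.22 (limma adjusted p = 0.908, interval -0.98 to 0.55). The study put Isg15, as higher in VEH-CD, and Ifi203, as lower, on a list of its leading differentially expressed genes, a list chosen on these same mice. Its methods mention a correction by a coefficient of variation (CV) under 20%, which the main test here did not apply.

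Usp18 had fewer reads, 15 to 52 per mouse. It was at 28.0, 17.3 and 45.2 normalized counts in VEH-WT, at 48.0, 16.8 and 29.9 in VEH-CD, at 36.8, 38.9 and 25.9 in VERCUR-WT, and at 29.7, 34.2 and 22.1 in VERCUR-CD. No group stood apart. The log2 fold change of VEH-CD over VEH-WT was 0.04, and its interval of -0.80 to 0.89 spans changes of nearly 1 on the log2 scale either way. Without VEH-CD mouse 1 it was -0.31 and without VEH-WT mouse 2 it was -0.29. The GENCODE gene Gm44148 overlaps Usp18 on the opposite strand.

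Ifit1 and Ifit3 encode proteins with tetratricopeptide repeats that bind viral RNA or take part in that response. Ifit1 was at 105, 112 and 130.4 normalized counts in VEH-WT and at 168, 75.9 and 115 in VEH-CD. Its values in VERCUR-WT were 121, 211 and 99.2, and those in VERCUR-CD were 105, 123 and 101. The 2 highest mice, VERCUR-WT 2 and VEH-CD 1, came from different groups. The log2 fold change of VEH-CD over VEH-WT was -0.02 (interval -0.65 to 0.60). It was 0.27 without VEH-CD mouse 2, 0.06 without VEH-WT mouse 3 and -0.30 without VEH-CD mouse 1.

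Ifit3 was at 369, 300.2 and 419.8 normalized counts in VEH-WT, at 633, 339 and 446 in VEH-CD, at 388, 627 and 397 in VERCUR-WT, and at 455, 462 and 467 in VERCUR-CD. The log2 fold change of VEH-CD over VEH-WT was 0.35 (SE 0.22, interval -0.13 to 0.82, limma adjusted p = 0.561), the largest positive value of the 9 genes in this comparison, and it was 0.11 without VEH-CD mouse 1, 0.56 without VEH-CD mouse 2 and 0.22 without VEH-WT mouse 2. The VERCUR-CD mice lay close together (CV 1.23%) and all above the VEH-WT mice. That log2 fold change, VERCUR-CD over VEH-WT, was 0.36 (SE 0.22, limma adjusted p = 0.687). Groups that did not overlap, with the first group higher, were seen in this comparison for 6.56% of all genes and for 1 of the 9. In the same comparison 9 of 10 microglia markers had positive log2 fold changes, 5 of them at an unadjusted p under 0.05 and 0 called by limma. Of all genes, 8.68% passed that threshold in either direction and 0.199% were called. The sum of the microglia markers did not overlap between the groups (22198 to 23599 against 18322 to 21767). All 6 endothelial and all 5 astrocyte markers were also positive, 1 and 0 of them at an unadjusted p under 0.05, and all 5 oligodendrocyte markers were negative. The part of these cells in the value of Ifit3 was not tested. Ifit3b, the near-identical neighbor, was at 213 to 255 in VEH-WT and at 284 to 313 in VERCUR-CD, with a log2 fold change of 0.41 (limma adjusted p = 0.415).

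Oasl2 encodes an oligoadenylate synthetase-like protein and Bst2 encodes tetherin, a membrane protein that holds budding virus at the cell surface. Oasl2 was at 113, 86.6 and 160.8 normalized counts in VEH-WT and at 158, 98.0 and 114 in VEH-CD. It was at 130.6, 134 and 114 in VERCUR-WT and at 124, 116 and 113 in VERCUR-CD. Both co-treated groups lay inside the range of the VEH-WT mice. Bst2 was the steadiest of the induced genes, with every mouse between 85.5 and 121 and group means of 104 ± 9.2 in VEH-WT, 111 ± 13.7 in VEH-CD, 97.3 ± 17.7 in VERCUR-WT and 102 ± 10.6 in VERCUR-CD (SD, n = 3). The log2 fold changes of VEH-CD over VEH-WT were 0.05 for Oasl2 (interval -0.41 to 0.52) and 0.08 for Bst2 (interval -0.26 to 0.43). That of Oasl2 was -0.16 without VEH-WT mouse 2 and -0.14 without VEH-CD mouse 1.

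Ifi203 belongs to the Ifi200 family, whose products carry pyrin or HIN domains and include DNA sensors. Of the 9 genes it differed most between groups. It was at 29.1, 33.5 and 23.5 normalized counts in VEH-WT and at 10.3, 3.53 and 9.58 in VEH-CD. It was at 16.6, 21.3 and 14.7 in VERCUR-WT and at 15.7, 15.3 and 10.6 in VERCUR-CD. Every VEH-WT mouse lay above every mouse of the other groups, and every VEH-CD mouse lay below them. The closest values of VEH-CD and VERCUR-CD, 10.28 in mouse 1 and 10.59 in mouse 3, lay less than 1 read apart. These levels rest on few reads: 26 to 29 per mouse in VEH-WT, 4 to 9 in VEH-CD, 14 to 23 in VERCUR-WT and 11 to 18 in VERCUR-CD. VEH-CD was lower than VEH-WT by a log2 fold change of -1.85 (SE 0.35, interval -2.62 to -1.09), a fold of 0.277, with an unadjusted p of 0.000181 and a limma adjusted p of 0.0575. The call is close to its threshold. It was made, among other settings, with a pseudocount of 5 (adjusted p = 0.0401), with sample weights estimated gene by gene (adjusted p = 0.0173) and at an adjusted p under 0.1, and it was not made when any single mouse was left out (adjusted p = 0.0526 to 0.262). Groups without overlap, VEH-CD lower, were seen for 2 of the 9 genes and for 11.4% of all genes.

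In co-treated mice the genotypes overlapped for Ifi203. VERCUR-CD over VERCUR-WT gave a log2 fold change of -0.32 (interval -1.09 to 0.45, limma adjusted p = 1). The difference between the genotype effects, the interaction, was 1.53 on the log2 scale (SE 0.50, interval 0.45 to 2.61), with an unadjusted p of 0.00946 and a limma adjusted p of 0.816. This comparison called 0 of the 9 genes and 0% of all genes, and at an unadjusted p under 0.05 it held 2 of the 9 (Ifi203 and Irf9, both positive), 3.72% of all genes with a positive value and 6.05% in either direction. Co-treatment went with lower values in WT mice, by a log2 difference of -0.68 (limma adjusted p = 0.957; no overlap, as for 5.25% of all genes), and with higher values in CD mice, by 0.85 (unadjusted p = 0.0328, limma adjusted p = 0.867). The latter was 0.42 without VEH-CD mouse 2, 0.27 with sample quality weights and 0.38 with weights estimated gene by gene. VERCUR-CD still lay below VEH-WT, with a log2 fold change of -1.004 (limma adjusted p = 0.461) and no overlap, as for 7.33% of all genes.

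Mndal, another Ifi200 gene, overlaps Ifi203 on the same strand over 22085 bases of the gene spans, introns included. Of the 100-base stretches of the Ifi203 transcripts, 2.84% are also found in other genes, Ifi203-ps and Mndal the most. Some reads may therefore have been assigned to the other gene. Mndal is described with this in view, but it was chosen after its values were seen. Mndal was at 20.2, 25.4 and 19.99 normalized counts in VEH-WT and at 11.4, 7.06 and 13.2 in VEH-CD, and at 19.0, 20.4 and 16.4 in VERCUR-WT and 8.72, 12.6 and 5.77 in VERCUR-CD. All 6 CD mice lay below all 6 WT mice, which was seen for 0.473% of all genes. The log2 fold change of CD over WT was -1.02 in vehicle-treated mice (limma adjusted p = 0.239) and -1.02 in co-treated mice (limma adjusted p = 0.886), and -1.02 over both treatments (limma adjusted p = 0.115). In Ifi203 the same comparison over both treatments gave -1.09 (limma adjusted p = 0.143), and neither gene was called. That value averages -1.85 in vehicle-treated and -0.32 in co-treated mice, whereas Mndal was at -1.02 in both. The interactions were 1.53 for Ifi203 and -0.00 for Mndal (limma adjusted p = 0.999). Aim2, an inflammasome DNA sensor of the same family, had 54.3 to 84.3 normalized counts in VEH-WT and 71.5 to 90.3 in VEH-CD, and a log2 fold change of 0.28 (limma adjusted p = 0.608). Ifi209, the remaining gene of this family that was tested, had a mean of only 10.1 normalized counts. Its log2 fold change of CD over WT was -0.03 in vehicle-treated mice (limma adjusted p = 0.986) and -0.82 in co-treated mice (limma unadjusted p = 0.0722).

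Irf7 and Irf9 are the transcription factors among the 9 genes. Irf7 is induced by interferon and amplifies the response, and Irf9 is the DNA-binding part of ISGF3. Irf7 was at 87.4, 78.5 and 76.5 normalized counts in VEH-WT, at 132.5, 73.3 and 92.2 in VEH-CD, at 87.8, 91.7 and 86.3 in VERCUR-WT and at 95.1, 83.6 and 103 in VERCUR-CD. VEH-CD again held both the highest and the lowest of the 12 mice. The log2 fold change of VEH-CD over VEH-WT was 0.25 (SE 0.19, limma adjusted p = 0.615), 0.03 without VEH-CD mouse 1 and 0.45 without VEH-CD mouse 2.

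Irf9 varied least within groups of the 9 genes. It was at 320.6, 388 and 284 normalized counts in VEH-WT, at 269.6, 256 and 256 in VEH-CD, at 275, 283 and 296 in VERCUR-WT and at 289, 288 and 287 in VERCUR-CD. All VEH-CD mice lay below all mice of VEH-WT, with a log2 fold change of -0.33 (SE 0.11, interval -0.56 to -0.10), an unadjusted p of 0.00867 and a limma adjusted p of 0.255. The 2 highest mice of this gene were VEH-WT mice, and without VEH-WT mouse 2 the log2 fold change was -0.21. In VERCUR-CD the values were higher than in VEH-CD without overlap, by 0.14 on the log2 scale (interval -0.09 to 0.37, limma adjusted p = 0.867). The interaction was 0.35 (unadjusted p = 0.0395, limma adjusted p = 0.816). Irf9 overlaps Rnf31 by 123 bases on the same strand.

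**Figure D2:**
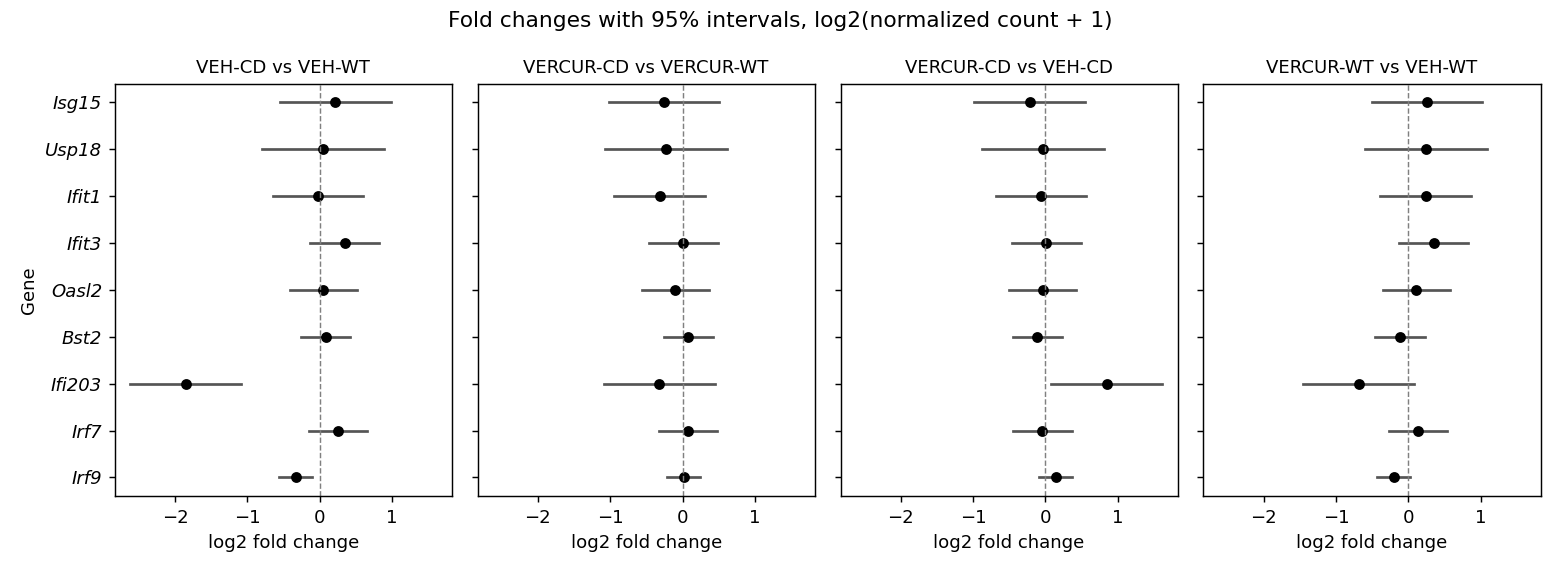
log2 fold change of log2(normalized count + 1) (x axis) of each gene (y axis) in 4 comparisons, with limma's 95% interval as a line; black points did not pass the test. The interval leaves out 0 for Ifi203 and Irf9 in VEH-CD vs VEH-WT and for Ifi203 in VERCUR-CD vs VEH-CD, before any adjustment over the genes tested.

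In CD mice, the co-treatment was compared directly as VERCUR-CD against VEH-CD. Here 0 of the 9 genes were called beside 0% of all genes, and 1 of the 9 (Ifi203, higher) had an unadjusted p under 0.05 beside 2.09% of all genes higher and 3.54% in either direction. Apart from Ifi203 and Irf9, the log2 differences ran from -0.22 (Isg15) to 0.01 (Ifit3), and no interval of these 7 genes left out 0. Groups without overlap, VERCUR-CD higher, were seen for 2 of the 9 (Ifi203, by less than 1 read, and Irf9) and for 3.71% of all genes. In VERCUR-CD against VERCUR-WT, 0 of 9 were called (0.146% of all genes), 0 had an unadjusted p under 0.05 (4.1% of all genes), and the log2 fold changes ran from -0.32 (Ifi203 and Ifit1) to 0.08 (Bst2). In VERCUR-WT against VEH-WT, 0 of 9 were called (0% of all genes) and 0 had an unadjusted p under 0.05 (5.22% of all genes). The largest positive value there was that of Ifit3, at 0.35 (limma adjusted p = 0.999), which was 0.13 without VERCUR-WT mouse 2 and 0.22 without VEH-WT mouse 2. VERCUR-CD against VEH-WT called 0 of 9 (0.199% of all genes), with Ifi203 alone, lower, at an unadjusted p under 0.05 (4.76% of all genes lower and 8.68% in either direction). Comparisons that share a group of mice are not independent of each other.

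CD against WT over both treatments called 0 of 9 (0.321% of all genes), and 1 of 9, Ifi203, was lower at an unadjusted p under 0.05 (4.86% of all genes lower and 9.64% in either direction). VERCUR against VEH over both genotypes called 0 of 9 (0% of all genes), with 0 at an unadjusted p under 0.05 (2.96% of all genes). limma's voom on the recovered reads called 0 of the 9 in each of the 8 comparisons.

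Mice of the same group differed more in 8 of the 9 genes, Irf9 apart, than in the median gene. The within-group SD on the log2 scale was 0.54 for Usp18 and 0.50 for Isg15, above 96.3% and 95.3% of all genes, and 0.41 for Ifit1, 0.32 for Ifit3 and 0.29 for Oasl2, against a median of 0.14 over all genes. Irf9, at 0.12, lay below that median. Genes were not matched for level in these ranks, and the part of low read numbers in them was not tested. Usp18 had 15 to 52 reads per mouse and Isg15 33 to 96. The 4 groups accounted for 77.9% of the variance of Ifi203 and 60.2% of that of Irf9. For the other 7 genes the share was 3.29 to 25.2%, below the median of 26.6% over all genes.

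The same mice were high or low in many of the genes. VEH-CD mouse 1 had the highest value of its group in 9 of 9 genes and VEH-CD mouse 2 the lowest in 9 of 9, an order that 21.2% of all genes showed. For Irf9, VEH-CD mice 2 and 3 lay less than 1 read apart, at 256.07 and 256.34. Mouse 1 was higher than mouse 2 by 2.86-fold for Usp18, 2.91-fold for Ifi203, 2.52-fold for Isg15, 2.21-fold for Ifit1 and 1.05-fold for Irf9, where the median over all genes was 0.993. VERCUR-WT mouse 2 was the highest of its group in 8 of 9 genes, and 33.4% of all genes were highest in that mouse. As the mean log2 deviation of the 9 genes from their means over 12 mice, VEH-CD mice 1, 2 and 3 were at 0.32, -0.57 and -0.02 and VERCUR-WT mice at 0.01, 0.37 and -0.14. The VEH-WT mice were at 0.02, -0.09 and 0.21, and the VERCUR-CD mice, between -0.13 and 0.02, lay closest together.

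**Figure D3:**
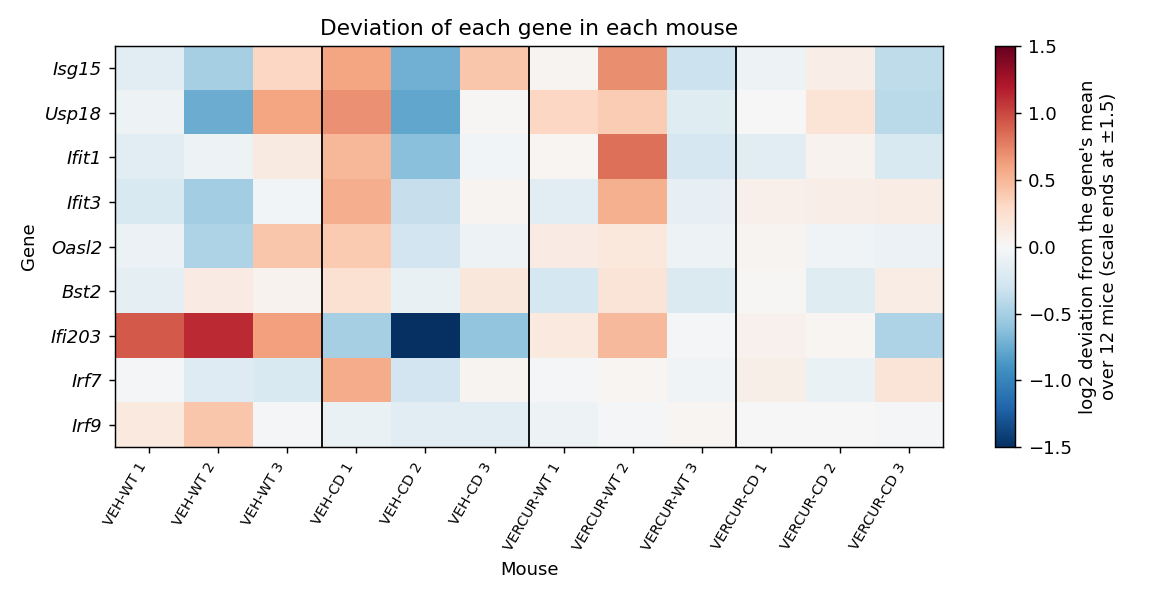
log2 deviation of each gene (rows) in each mouse (columns) from the mean of that gene over the 12 mice, in color from blue (lower) to red (higher); vertical lines part the 4 groups and the color scale ends at 1.5 in either direction. VEH-CD mouse 1 and VERCUR-WT mouse 2 are high and VEH-CD mouse 2 is low in most rows, and Ifi203 is the row that follows the groups.

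Over the 12 mice the 36 pairs of the 9 genes had a median Pearson r of 0.46 (-0.48 to 0.94). Without Ifi203 and Irf9, which were set aside after their values were seen, the 21 pairs among Isg15, Usp18, Ifit1, Ifit3, Oasl2, Bst2 and Irf7 had a median r of 0.63 (0.16 to 0.94), with Usp18 and Oasl2 the closest pair. Irf9 had a median r of -0.30 with the other genes and its closest partner was Ifi203 (r = 0.75). As deviations from group means, Ifi203 had r from 0.26 (Oasl2) to 0.72 (Ifit1) with the other 8 genes, and all 36 pairs had a median of 0.56 (-0.65 to 0.94). These correlations describe libraries that share depth and tissue makeup, and no test was made of them.

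The genes most like the mean standardized log2 value of the 9 genes over the 12 mice were Pecam1 (r = 0.93), Tubb6 (r = 0.89), Vsir (r = 0.89), Apol9b (r = 0.86) and Mmrn2 (r = 0.86). Without the 2 mice farthest from the median, VEH-CD mice 1 and 2, these were 0.80, 0.68, 0.81, 0.75 and 0.70. Ptpn18, Sash3, Crip1, E330011O21Rik and Myo1f followed, with r from 0.83 to 0.85. On deviations from the group means the closest were Pecam1 (r = 0.96), Apol9b, Ptpn18, Sash3 and Tubb6 (r = 0.92 to 0.93). Pecam1, an adhesion molecule of endothelial and blood cells, was at 1103, 729 and 932 normalized counts in VEH-CD mice 1, 2 and 3, at 931, 819 and 967 in VEH-WT, at 891, 1057 and 827 in VERCUR-WT and at 953, 997 and 947 in VERCUR-CD. Its highest and lowest mice were VEH-CD 1 and VEH-CD 2, as for Irf7. The other 5 endothelial markers had r from 0.31 (Cldn5) to 0.60 (Slco1a4), and the 10 microglia markers from 0.06 (Sall1) to 0.65 (Tmem119). Summed, the 6 endothelial markers ran from 7293 to 9648 in VEH-WT, from 7896 to 10098 in VEH-CD, from 7948 to 10374 in VERCUR-WT and from 9100 to 9919 in VERCUR-CD. The microglia markers, all 10 in the table, ran from 18322 to 21767, 19820 to 23043, 20650 to 22019 and 22198 to 23599 in the same order of groups. In such bulk tissue, fewer cells of a type and less RNA per cell cannot be told apart, and the part of these cells in the values of the 9 genes was not tested. Of 5 T cell markers Cd4 alone was among the genes with counts, and Cd3e, Cd3g, Cd3d and Cd8a were absent. Cd4 was highest in VEH-CD mouse 1 (623), VERCUR-WT mouse 3 (558), VEH-WT mouse 3 (493) and VERCUR-CD mouse 1 (441). These mice also had the highest sums of the striatal markers, 18977 to 25455. In the remaining mice Cd4 was at 52.8 to 270 and the striatal sums at 5395 to 12376. The range of Cd4 was therefore not read as one of T cells, and its source was not tested.

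**Figure D4:**
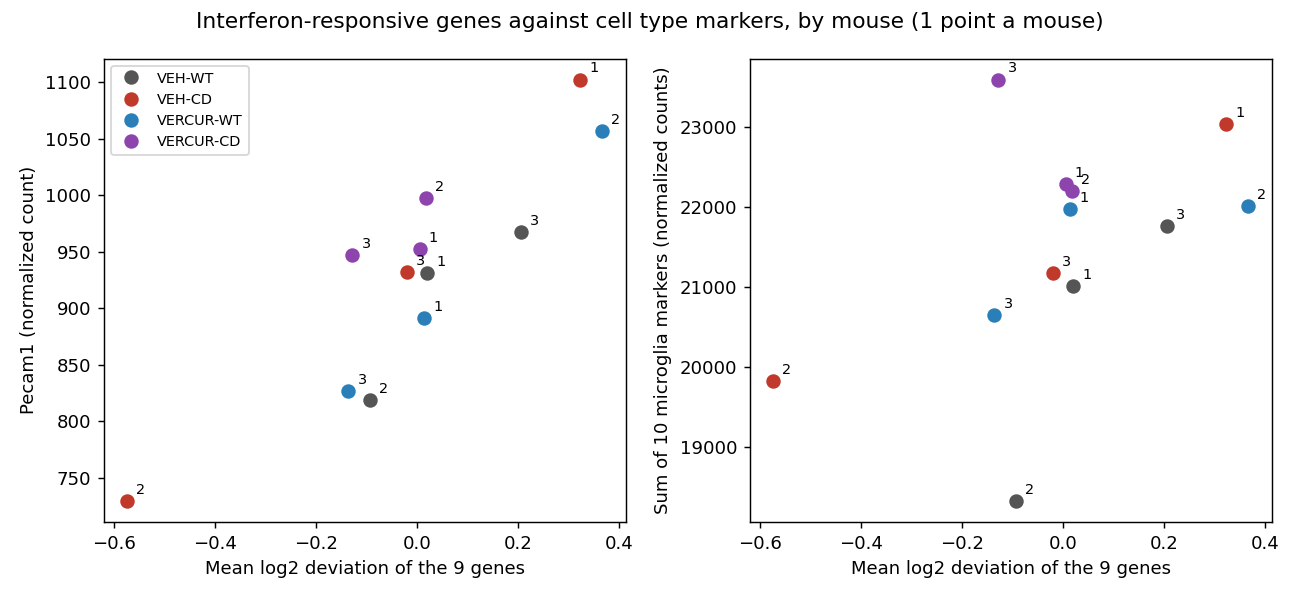
Pecam1 (left, normalized count) and the sum of 10 microglia markers (right, normalized counts) on the y axes against the mean log2 deviation of the 9 genes (x axes); each point is a mouse, colored by group and numbered by replicate, and the y axes do not start at 0. With the mean standardized value of the 9 genes, Pecam1, which was chosen from all genes for its likeness, has r = 0.93, and the sums of the microglia and the 6 endothelial markers have r = 0.54 and 0.65.

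A wider list of 130 further genes of the interferon pathway held 101 that were tested. The 12 interferon genes on it were not analysed here. In VEH-CD against VEH-WT, 0 of the 101 were called (0.257% of all genes). Their log2 fold changes were positive for 50 and negative for 51, with a median of -0.00. At an unadjusted p under 0.05, 3 were higher and 3 lower, beside 11.8% of all genes in either direction. The 3 higher were Mx2 (0.83), Tap1 (0.35) and Shisa5 (0.15). The 3 lower were Mndal (-1.02), Ifi30 (-0.37) and Samhd1 (-0.15). The lowest adjusted p of the list, limma with Benjamini-Hochberg adjustment, was 0.239, that of Mndal. Mx2 encodes a dynamin-like GTPase with antiviral activity, and Tap1 a subunit of the transporter that loads peptides for MHC class I. All 4 genes of ISG15 conjugation had positive log2 fold changes of 0.07 to 0.23, and 11 of the 13 genes on a list of nucleic acid sensors, their adaptors (such as Mavs and Myd88) and kinases (Tbk1 and Ikbke) had negative ones, none of them past the unadjusted threshold. The receptors and signaling genes, 11 in number, had a median of -0.07, and the 13 GTPases of the GBP and IRG families one of 0.01.

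Among genes of this list with a mean of at least 50, the lowest log2 fold changes of VEH-CD over VEH-WT were those of Ifi30, a lysosomal thiol reductase (-0.37, limma adjusted p = 0.375), Slfn5 (-0.31, adjusted p = 0.463) and Socs3, a feedback inhibitor of cytokine signaling (-0.30, adjusted p = 0.571). The highest were those of Tap1 (0.35, limma adjusted p = 0.416), Ifi35 (0.33, adjusted p = 0.504) and Aim2. Ifi30 was at 75.1, 94.7 and 80.0 normalized counts in VEH-WT, at 56.0, 60.9 and 76.7 in VEH-CD, at 67.7, 75.0 and 72.5 in VERCUR-WT and at 75.9, 83.6 and 87.6 in VERCUR-CD. The VEH-CD range reached into that of VEH-WT. In VERCUR-CD against VEH-CD, 0 of the 101 were called. Beside 3.54% of all genes, 1 of the 101, Ifi30, had an unadjusted p under 0.05, with a log2 difference of 0.36 (limma adjusted p = 0.867). Socs3 (0.33) and Gbp5 (0.31) followed it, and the lowest were Rtp4 (-0.37), Gbp6 (-0.28) and Tap1 (-0.23), each with a limma adjusted p of 0.867. In VERCUR-CD against VERCUR-WT, 3 were higher and 3 lower at an unadjusted p under 0.05 (4.1% of all genes in either direction), and 0 were called. Over the 12 mice, 7 of the 101 genes (6.93%) had r above 0.7 with the mean of the 9 genes, against 0.629% of 17001 other genes. They were Ifitm3, Gbp2, Lgals3bp, Iigp1, Ifitm2, Gbp5 and Irf8, with r from 0.71 to 0.81, which became 0.36 to 0.61 without VEH-CD mice 1 and 2. The promoter windows of 82 of the 101 were found, and 32 of these held the ISRE core.

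**Figure D5:**
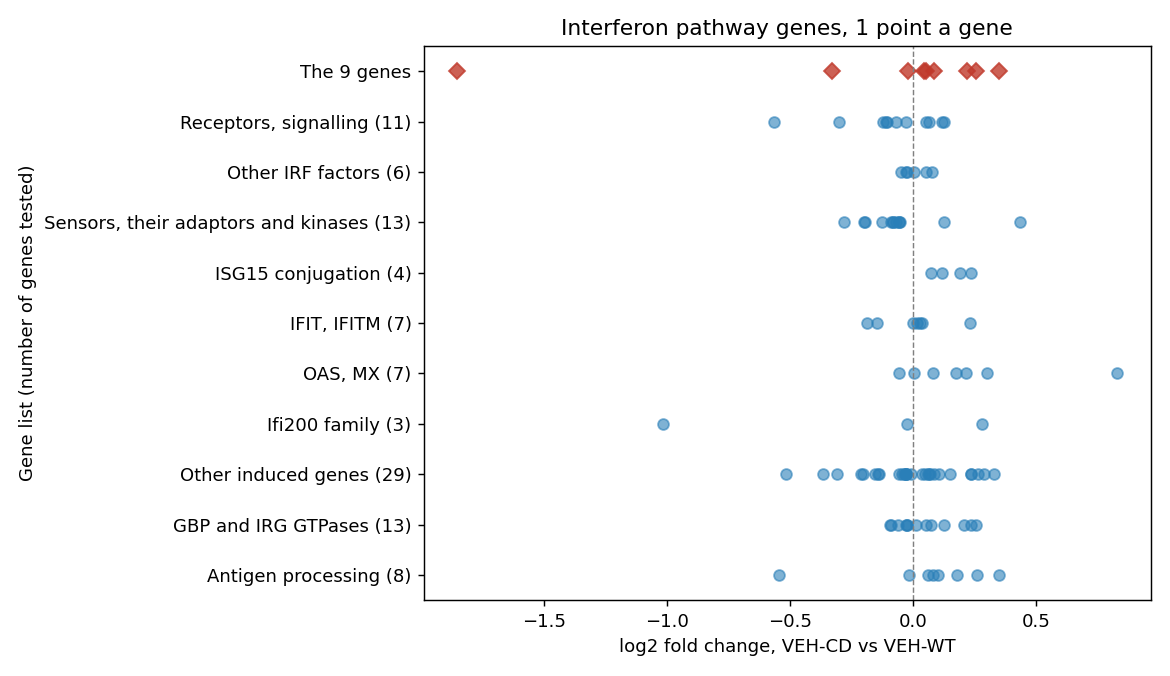
log2 fold change of VEH-CD over VEH-WT (x axis) of the 9 genes (red diamonds) and of the 101 other genes of the interferon pathway that were tested (blue circles), by list (y axis, number of genes in brackets); each point is a gene. Points of most lists lie on both sides of 0, and Ifi203 (-1.85) and Mndal (-1.02) are the lowest.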

How the data were processed

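The authors sequenced mRNA libraries of mouse cortex as paired-end reads, aligned them to GRCm38 with STAR 2.5.3a and deposited 1 table of normalized counts per gene and mouse, a count divided by 1 factor per mouse. The counting program, its use of strand, the annotation release and the normalization are not given in the sources used here. Each mouse has its own step, the value of 1 read, and 99.96% to 100% of values came out whole in it (tolerance 0.0051), which gave the depth. Also deposited and not used are 2 tables of the authors' values relative to the VEH-WT mean.

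Values were taken as log2(normalized count + 1) for the 17111 genes with a mean of at least 10 and fitted in all 12 mice, with 4 group means and an intensity trend (limma 3.58.1, R 4.3.3). Two-sided p values were adjusted over all genes tested, and the test was run on simulated data first. With 3 mice against 3 the smallest two-sided p of an exact permutation test is 0.1, and none was run. limma on the log scale was the main test because the deposited values are normalized and not raw counts. Fold changes understate differences of low genes because of the pseudocount. The 9 genes and all lists were chosen with earlier results of these data known. Named from the wider list are the genes called (there were 0) and the 3 highest and 3 lowest log2 fold changes among genes with a mean of at least 50 in VEH-CD against VEH-WT and in VERCUR-CD against VEH-CD. Also named are the 10 genes whose values over the 12 mice were most like the mean standardized value of the 9, and 5 on deviations from group means. Others, such as Mndal, Ifit3b and those named for an unadjusted p or a high r, were chosen after their values were seen. Positions are those of GENCODE M21 on GRCm38 and promoters those of RefSeq on GRCm38.p6.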

Additional observations from a re-analysis of the deposited data

Results flagged for a closer look

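The genotype by treatment interaction of Ifi203 stood out because VERCUR-WT lay below VEH-WT and VERCUR-CD above VEH-CD, each without overlap. The groups are of different mice. Such a gap was seen for 5.25% of all genes in WT mice (co-treated lower) and for 3.71% in CD mice (co-treated higher). VERCUR-WT mice lay at 14.7 to 21.3 normalized counts below VEH-WT mice at 23.5 to 33.5, and VERCUR-CD mice lay at 10.6 to 15.7 above VEH-CD mice at 3.53 to 10.3. The gap in CD mice ran from 10.28 (VEH-CD mouse 1) to 10.59 (VERCUR-CD mouse 3). It was smaller than 1 read, which was worth 1.14 and 0.962 in these mice. The CD groups rest on 11 to 18 reads per mouse in VERCUR-CD and 4 to 9 in VEH-CD. The log2 difference between the 2 effects was 1.53, and limma tested it with an unadjusted p of 0.00946 and an adjusted p of 0.816 over all genes. An unadjusted p under 0.05 was seen in the interaction for 6.05% of all genes.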

How the results depend on the processing

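The number of the 9 genes called stayed at 0 in all 8 comparisons with a pseudocount of 0.1, no filter, quantile normalization, median centring, only the groups compared, no intensity trend, voom and an adjusted p alone, and with each mouse left out in turn (0 to 0). A mean of at least 50 also gave 0, but left Ifi203 and Usp18 out of the test. In VEH-CD against VEH-WT it was 1 (Ifi203) with a pseudocount of 5, with sample quality weights of either kind and at an adjusted p under 0.1, and 2 (Isg15 at 0.84 and Ifi203) after a group with a CV of at least 20% lost the mouse farthest from its median. That removal, which lowers the spread by its own construction, called 972 of all genes in this comparison. It gave 1, Ifi203, in VERCUR-WT against VEH-WT, VERCUR-CD against VEH-WT, the interaction and CD against WT. Of all genes, it called 649, 840, 492 and 837 in those comparisons. Sample quality weights gave 1 in VERCUR-CD against VEH-CD (Isg15 at -0.71, limma adjusted p = 0.0342). They gave 1, Ifi203, in VERCUR-CD against VEH-WT and in CD against WT. Their default estimation did not converge. These default weights called 354 of all genes in VEH-CD against VEH-WT and 1015 in VERCUR-CD against VEH-CD, beside 44 and 0 without weights. They called 1382 in VERCUR-CD against VEH-WT and 456 in CD against WT, beside 34 and 55 without weights. Weights estimated gene by gene and voom were added after seeing the data, and the former gave 1, Ifi203, in CD against WT. Gene by gene weights called 182 of all genes there and 349 in VEH-CD against VEH-WT. For Ifi203 in VEH-CD against VEH-WT the log2 fold change ran from -2.14 to -1.43 over the settings.

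Several log2 values turned sign, none of them called, and the cause was not tested. Quantile normalization gave -0.0205 for Usp18 in VEH-CD against VEH-WT, -0.000724 for Ifit3 and -0.00514 for Irf9 in VERCUR-CD against VERCUR-WT, and -0.00773 for Ifit3 in VERCUR-CD against VEH-CD; voom gave -0.0234, -0.0140 and -0.00138 for the first 3. Removal of the farthest values gave 0.0254 for Isg15 in VERCUR-CD against VERCUR-WT, -0.0745 for Ifit1 in VERCUR-WT against VEH-WT, and 0.49 for Usp18, 0.22 for Ifit1, 0.15 for Oasl2 and 0.18 for Irf7 in VERCUR-CD against VEH-CD. Sample quality weights gave 0.10 for Ifit1 in VEH-CD against VEH-WT (0.11 gene by gene), and -0.0393 for Ifit3 (-0.0791 gene by gene) and 0.0351 for Irf7 in VERCUR-CD against VEH-CD.

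Leaving out single mice turned 25 signs. The ranges in VEH-CD against VEH-WT were -0.0292 to 0.62 for Isg15, -0.31 to 0.42 for Usp18, -0.30 to 0.27 for Ifit1 and -0.16 to 0.28 for Oasl2. In VERCUR-CD against VEH-CD they were -0.62 to 0.0288 for Isg15, -0.41 to 0.32 for Usp18, -0.34 to 0.22 for Ifit1, -0.20 to 0.25 for Ifit3, -0.19 to 0.15 for Oasl2 and -0.24 to 0.18 for Irf7. In VERCUR-CD against VERCUR-WT they were -0.49 to 0.0254 for Isg15, -0.11 to 0.23 for Ifit3, -0.00296 to 0.23 for Bst2 and -0.00881 to 0.0427 for Irf9. In VERCUR-WT against VEH-WT they were -0.0258 to 0.49 for Isg15, -0.0922 to 0.58 for Usp18, -0.0745 to 0.47 for Ifit1 and -0.10 to 0.34 for Oasl2.

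Replicate numbers are shared between groups, and nothing in the labels says that they pair the mice. Same-numbered mice correlated at -0.35 to 0.27 in their deviations from group means over 18 pairs, 4 of them above 0.1. Between VEH-WT and VERCUR-WT these values were 0.06, 0.18 and 0.27, and between VERCUR-WT and VERCUR-CD -0.35, -0.16 and -0.14. Deviations from means of 3 mice cannot settle whether same-numbered mice share a litter or batch. With the replicate number as a block, 0 of the 9 genes were called in each comparison, Ifi203 had an adjusted p of 0.0765 in VEH-CD against VEH-WT, and the genes called there numbered 40 in place of 44. The count models planned on the recovered reads were not run, because a first check of the unit could not read the table's decimal commas. Read with these commas, 99.96% to 100% of values came out whole, and voom was run on the recovered reads instead. Depth limits Ifi203 and Usp18 most, at 4 to 29 and 15 to 52 reads per mouse. In VEH-CD against VEH-WT, 3 mice a group leave intervals of over 1 log2 unit for Isg15, Usp18, Ifit1 and Ifi203.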
